A study of Mus musculus with 22 samples.

Results

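Simple epithelial keratins and epithelial regulators are 10 genes taken by symbol from the 55055 genes shared by the deposited tables, and all 10 were found there. They are the keratins Krt7, Krt8, Krt18 and Krt19, the splicing regulators Esrp1 and Esrp2, the transcription factors Grhl2, Ovol1 and Ovol2, and the protease inhibitor Spint2. They were followed by polyA RNA-seq in 22 libraries of 10 groups of mouse embryonic stem (mES) cells and their derivatives, either wild type (wt) or Hox-/-. The series title describes the Hox-/- cells as lacking all Hox function, and their library titles carry the mark BADC, which the labels do not explain. All cells had been kept as mES cells in serum medium with 100 ng/ml LIF, 3 µM CHIR99021 (a GSK-3 inhibitor) and 1 µM PD0325901 (a MEK inhibitor), and 2 wt and 2 Hox-/- libraries came from that state. Adherent endoderm cultures (3 wt, 3 Hox-/-) received 100 ng/ml Activin A and 3 µM CHIR99021 from 24 h, renewed at 72 h, and were collected at 120 h. Gastruloids, aggregates of mES cells that model the early embryo, were wt with Chiron (2 libraries at 96 h, 2 at 120 h), wt with Activin A (2 and 2) or Hox-/- with Activin A (2 and 2). Their doses are not given in the labels, and neither is the number of clones of each genotype, so that effects of the line used cannot be told apart from those of the lost genes. Nothing says that replicates were separate cultures, so p-values measure the spread between these libraries, which may be technical.

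Keratins 8 and 18 are the first intermediate filament proteins made by embryonic epithelia: Krt8, a type II keratin, pairs with Krt18, a type I keratin, and an unpaired keratin protein is degraded. Krt7 (type II) and Krt19 (type I) join them in ductal and simple epithelia, including gut. Esrp1 and Esrp2 bind RNA and set the epithelial pattern of alternative splicing. Grhl2, Ovol1 and Ovol2 are transcription factors that maintain the epithelial state; Grhl2 activates junction genes, and the Ovol proteins repress mesenchymal regulators such as Zeb1. Spint2 (also called HAI-2) is a membrane-bound Kunitz inhibitor of serine proteases such as matriptase and prostasin, and it is needed in the intestinal epithelium.

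Library totals ran from 11900882 to 15060936 counts in mES cells, from 12327443 to 17601459 in endoderm, from 14953662 to 28819301 in 96 h gastruloids and from 9108085 to 11930416 in 120 h gastruloids. Levels are CPM, the count of a gene per 1000000 counts of its library, and levels of different genes are compared only after division by exon length. A gene was called at an adjusted p under 0.05 in edgeR's quasi-likelihood test with Benjamini-Hochberg adjustment over all genes tested, and folds are log2 with their standard error. Ovol1 had between 0 and 18 counts in every library, passed the low-count filter nowhere and was tested in no comparison. Krt7 and Esrp1 also failed the filter in mES cells, so 7 of the 10 genes were tested there and 9 elsewhere. In a bulk library, fewer cells of a type and less RNA per cell cannot be told apart.

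On mm10, Krt7 (chr15:101411103-101430313, plus strand), Krt8 (chr15:101996698-102004482, minus strand) and Krt18 (chr15:102028180-102032027, plus strand) lie on 1 chromosome. Krt8 and Krt18 stand head to head with 23697 bases between them, and Krt7 ends 566384 bases before Krt8. Krt19 is at chr11:100140810-100146120, Esrp1 at chr4:11331933-11386783, Esrp2 at chr8:106130319-106136974 and Grhl2 at chr15:37233036-37363569. Ovol1 is at chr19:5549136-5560646, Ovol2 at chr2:144305175-144332146 and Spint2 at chr7:29256341-29281912. Esrp2 shares 219 exonic bases with Nfatc3 on the opposite strand, a gene with 37650 counts over the 22 libraries. The kit was stranded, per the labels, but whether the counting used strand is not given in the sources used here, so the counts of Esrp2 are less certain than those of the other genes.

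RefSeq promoter windows (GRCm38.p6) were at hand for 5 of the 10 genes: Krt7, Krt8, Krt18, Ovol2 and Spint2. The windows of Krt8 and Krt18 are shown because these partner genes carried most of the keratin RNA, and that of Spint2 because it is the most GC-rich of the 3. Each runs 5′ to 3′ on the gene's strand and stops at the first annotated exon or, for Spint2, at the RefSeq start. Distances are counted from the RefSeq start, which differs from the gene boundary given above for each of these genes. Capitals mark CAGGTG (an E-box that Snail and Zeb proteins can bind) or GGGCGG (a GC box), on either strand.
Krt8, chr15:102004483-102004592: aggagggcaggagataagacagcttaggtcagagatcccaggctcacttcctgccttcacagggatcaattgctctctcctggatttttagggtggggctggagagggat
Krt18, chr15:102027966-102028179: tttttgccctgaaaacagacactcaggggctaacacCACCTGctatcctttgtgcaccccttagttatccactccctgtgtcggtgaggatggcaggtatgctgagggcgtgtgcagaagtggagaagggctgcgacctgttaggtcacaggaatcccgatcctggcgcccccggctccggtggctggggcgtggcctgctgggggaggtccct
Spint2, chr7:29281978-29282227: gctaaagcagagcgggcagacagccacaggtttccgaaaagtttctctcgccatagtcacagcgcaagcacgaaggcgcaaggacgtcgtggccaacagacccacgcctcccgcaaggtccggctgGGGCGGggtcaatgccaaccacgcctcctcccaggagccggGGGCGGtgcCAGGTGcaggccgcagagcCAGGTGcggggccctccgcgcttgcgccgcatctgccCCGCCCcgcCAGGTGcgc
The Spint2 stretch is 69.6% G and C and holds CAGGTG 3 times, besides 3 GC boxes. The first bases of its CAGGTG matches lie 74, 55 and 9 bases before the RefSeq start. The Krt18 stretch holds 1 CAGGTG match, 214 bases before its RefSeq start. The Krt8 stretch holds neither motif. The 1 match in the full Krt8 window, 111 bases before its RefSeq start, lies in an annotated exon. Among 32851 RefSeq promoter windows of 250 bases, 17.2% hold CAGGTG and 32.7% hold GGGCGG on either strand, so such matches are common. AACCGGTT, a consensus of Grainyhead-like factors that 0.116% of windows hold, and TATAAA, which 12.4% hold, were in none of the 5 windows. The matches shown do not overlap one another, and a match is only a match of letters.

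**Figure D1:**
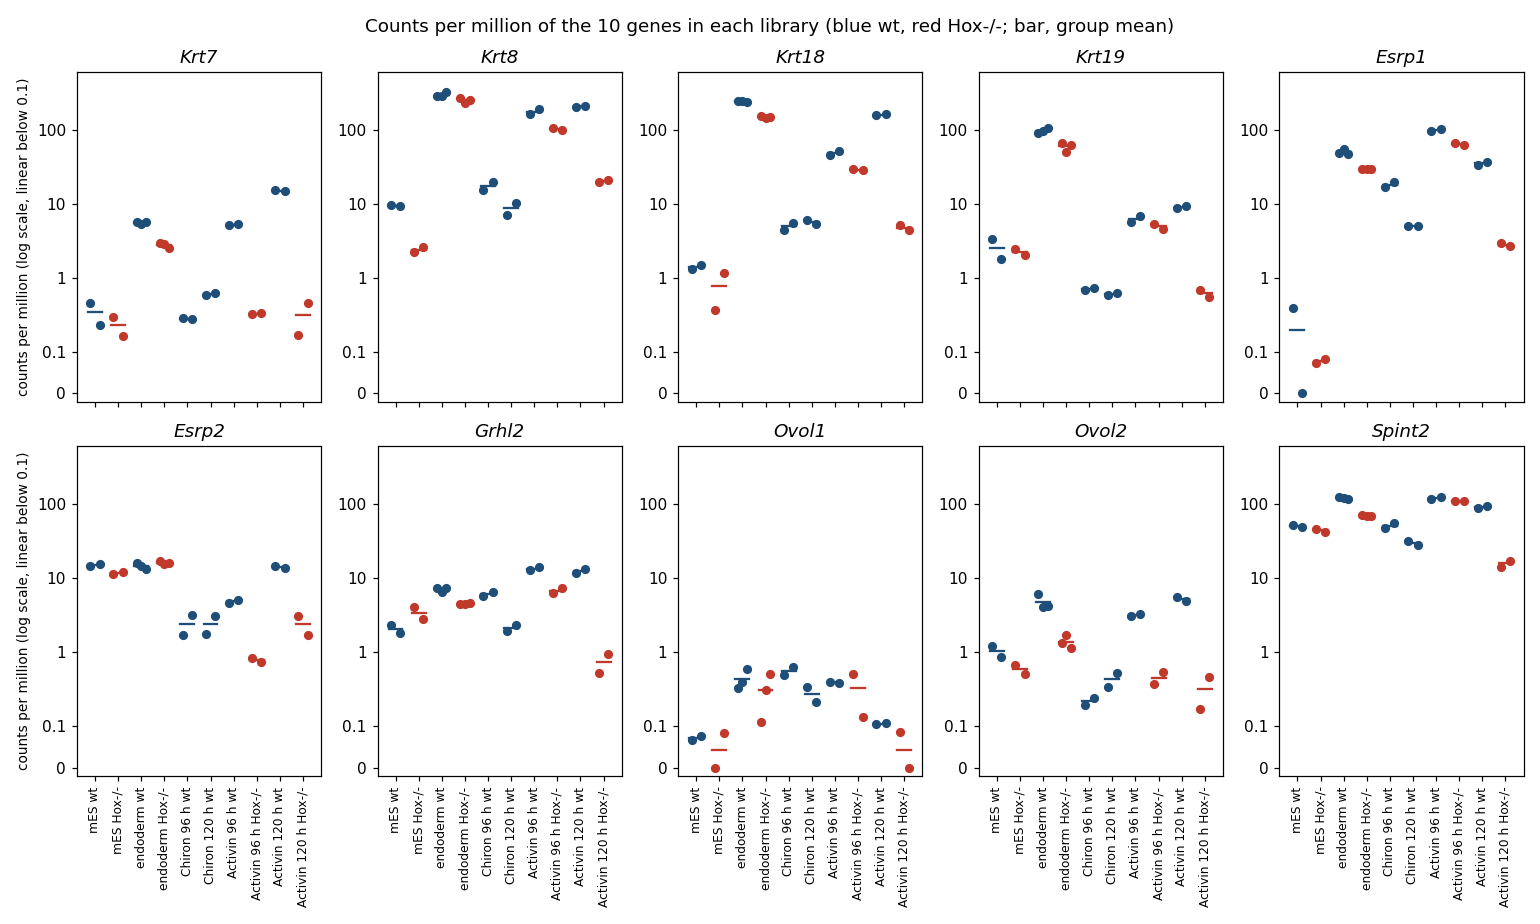
Level in CPM of each of the 10 genes (vertical axis, logarithmic above 0.1) in each of the 22 libraries, by group (horizontal axis); points are libraries, bars are group means, wt is blue and Hox-/- red. In the Activin A gastruloids at 120 h, the red points lie below the blue ones for all 9 genes tested, while Ovol1 stays under 1 CPM everywhere.

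The widest genotype difference in these genes was in Activin A gastruloids at 120 h, where wt aggregates expressed keratins 8 and 18 abundantly and Hox-/- ones at a small fraction of that level. Each of the 9 genes tested fell in Hox-/- gastruloids, each by more than 2-fold. In that comparison 25.5% of all genes tested were called lower, 14% were called with a fold above 2 in either direction, and the median log2 fold change was -3.73 over the 9 genes and -0.02 over all genes. Krt7 and Ovol2 passed the filter through the wt libraries alone, with at most 5 counts in a Hox-/- library at 120 h. The comparison asks how loss of Hox function bears on an aggregate driven towards endoderm.

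Krt8 stood at 205 and 210.3 CPM in the wt Activin A libraries at 120 h and at 19.9 and 20.8 CPM in the Hox-/- ones. Its log2 fold change was -3.24 ± 0.07 (SE; edgeR adjusted p = 1.89e-37). Krt18 stood at 157 and 161 CPM in wt and at 5.17 and 4.40 CPM in Hox-/- libraries. The partner keratins were thus both far lower, and Krt18 had the larger fold, a log2 fold change of -4.93 ± 0.10 (edgeR adjusted p = 2.59e-40). Krt7, the ductal type II keratin, stood at 15.1 and 14.8 CPM in wt libraries and was represented by 2 and 5 counts in the Hox-/- ones. Its log2 fold change, -5.43 ± 0.30 (edgeR adjusted p = 4.74e-21), rests on those few counts. Krt19, the gut and ductal type I keratin, stood at 8.76 and 9.44 CPM in wt libraries. In Hox-/- ones it had 8 and 6 counts, or 0.690 and 0.561 CPM. Its log2 fold change was -3.73 ± 0.30 (edgeR adjusted p = 2.22e-15) and rests on those few counts.

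The regulators were lower as well. Esrp1 stood at 33.7 and 36.6 CPM in wt against 2.93 and 2.71 CPM in Hox-/- libraries, a log2 fold change of -3.52 ± 0.15 (edgeR adjusted p = 3.01e-26). Esrp2 stood at 14.5 and 13.6 CPM against 3.10 and 1.68 CPM, with a log2 fold change of -2.42 ± 0.21 (edgeR adjusted p = 2.64e-14). Both splicing regulators were therefore low together in the Hox-/- libraries, Esrp1 the more so. Grhl2 stood at 11.6 and 13.3 CPM in wt libraries and at 6 and 10 counts, or 0.517 and 0.935 CPM, in Hox-/- ones, a log2 fold change of -3.99 ± 0.27 (edgeR adjusted p = 3.90e-18). Ovol2 went from 5.51 and 4.94 CPM to 0.172 and 0.468 CPM, a log2 fold change of -3.91 ± 0.40 (edgeR adjusted p = 1.08e-11). Spint2, the protease inhibitor, was the member with the smallest fall: 86.5 and 92.2 CPM in wt and 14.2 and 17.1 CPM in Hox-/- libraries, a log2 fold change of -2.40 ± 0.08 (edgeR adjusted p = 3.95e-30).

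At 96 h the same genotypes differed in these genes far less evenly: Krt7, Esrp2 and Ovol2 already differed by more than 2-fold, whereas Krt8, Krt18, Esrp1 and Grhl2 were moderately lower. In all, 7 of the 9 genes tested fell in Hox-/- gastruloids at 96 h, where 16.7% of all genes tested were called lower, and none was called higher. Krt7 and Ovol2, which are among the 7, passed the filter through the wt libraries alone, with at most 8 counts in a Hox-/- library at 96 h. Krt7 stood at 5.15 and 5.35 CPM in wt and at 7 and 5 counts, or 0.327 and 0.334 CPM, in Hox-/- libraries, a log2 fold change of -3.91 ± 0.29 (edgeR adjusted p = 3.75e-16). Ovol2 stood at 3.07 and 3.26 CPM in wt and had 8 counts in each Hox-/- library, a log2 fold change of -2.77 ± 0.31 (edgeR adjusted p = 3.27e-10). Esrp2 stood at 4.53 and 5.12 CPM against 0.842 and 0.736 CPM, a log2 fold change of -2.54 ± 0.25 (edgeR adjusted p = 4.83e-12). These 3 genes were thus near the bottom of their range in Hox-/- gastruloids before the other members were.

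Krt8 stood at 160.4 and 187 CPM in wt Activin A libraries at 96 h and at 104 and 99.8 CPM in Hox-/- ones, a log2 fold change of -0.72 ± 0.05 (edgeR adjusted p = 1.00e-17). Krt18 fell by a near equal step, -0.71 ± 0.06 on the log2 scale (edgeR adjusted p = 2.61e-13), from 45.6 and 52.1 CPM to 29.3 and 28.4 CPM. Esrp1, at 94.4 and 103 CPM in wt libraries, was at 66.7 and 61.9 CPM in Hox-/- ones, and Grhl2 at 12.7 and 14.1 against 6.27 and 7.22 CPM. Their log2 fold changes were -0.56 ± 0.05 (edgeR adjusted p = 2.32e-13) and -0.95 ± 0.12 (edgeR adjusted p = 4.34e-09). Krt19 (5.78 and 6.78 against 5.38 and 4.55 CPM) and Spint2 (117 and 123 against 109 and 107 CPM) did not pass, with log2 fold changes of -0.27 ± 0.15 (edgeR adjusted p = 0.145) and -0.09 ± 0.04 (edgeR adjusted p = 0.0884). For Spint2 the call turned on the setting: its adjusted p was between 0.00695 and 0.0197 with library totals alone, without the low-count filter, with a stricter filter, or with the 2 groups alone.

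**Figure D2:**
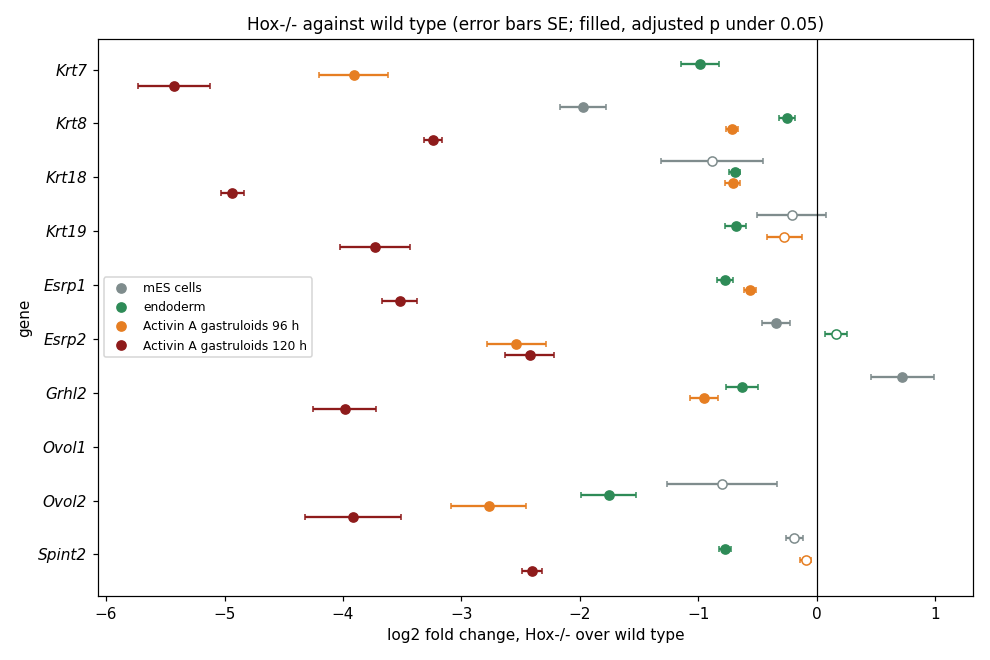
Log2 fold change of Hox-/- over wt (horizontal axis) for each gene (vertical axis) in mES cells, endoderm cultures and Activin A gastruloids at 96 h and 120 h; bars are standard errors, filled points are called and open ones are not, and Ovol1 was not tested. The 120 h gastruloids lie between -5.43 and -2.40, and the endoderm cultures between -1.76 and 0.16.

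The change of the genotype difference between 96 h and 120 h was tested as an interaction. It was negative and called for 6 of the 9 genes tested, Krt8, Krt18, Krt19, Esrp1, Grhl2 and Spint2, where 20.2% of all genes tested were called in that direction. The 6 log2 interaction values ran from -2.31 ± 0.09 for Spint2 to -4.23 ± 0.13 for Krt18 (edgeR adjusted p = 5.13e-26 and 3.33e-31). For Krt7 (-1.52 ± 0.68), Ovol2 (-1.14 ± 0.67) and Esrp2 (0.11 ± 0.36), the genes already more than 2-fold lower at 96 h, the interaction did not pass (edgeR adjusted p = 0.0708, 0.178 and 0.838). Krt7 and Ovol2 had at most 8 counts in any Hox-/- gastruloid library, so a further fall of either could hardly be detected. Without replicate 2 of the Hox-/- 120 h libraries, the Krt7 interaction was -2.35 and passed (edgeR adjusted p = 0.0423).

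In the adherent endoderm cultures, which received Activin A and CHIR99021 as flat layers, the 4 keratins, Esrp1, Grhl2, Ovol2 and Spint2 were all lower in Hox-/- cells, by smaller folds than in 120 h gastruloids. The count was 8 of 9 genes tested, where 23.1% of all genes tested were called lower. The median log2 fold change was -0.69 over the 9 genes and 0.00 over all genes. Whether the fold differs between adherent cultures and gastruloids was not tested.

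Krt8 stood at 283, 282 and 321 CPM in wt endoderm and at 263, 225 and 253 CPM in Hox-/- endoderm. That was the smallest of the 8 falls, -0.25 ± 0.07 on the log2 scale (edgeR adjusted p = 0.00757). Krt18 stood at 245, 242 and 236 CPM against 154, 144 and 146 CPM, a log2 fold change of -0.69 ± 0.05 (edgeR adjusted p = 3.40e-08). Krt19 was at its highest level of the 10 groups here: 89.6, 94.6 and 104 CPM in wt and 66.9, 50.1 and 61.1 CPM in Hox-/- cultures, a log2 fold change of -0.68 ± 0.09 (edgeR adjusted p = 2.47e-05). Krt7 stood at 5.76, 5.28 and 5.69 CPM against 2.95, 2.89 and 2.52 CPM, a log2 fold change of -0.98 ± 0.16 (edgeR adjusted p = 0.000162).

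Among the regulators in endoderm, Ovol2 had the largest fold, with 6.08, 4.09 and 4.16 CPM in wt and 1.31, 1.72 and 1.13 CPM in Hox-/- cultures (log2 fold change -1.76 ± 0.23, edgeR adjusted p = 3.08e-05). Esrp1 stood at 49.2, 55.6 and 46.9 CPM in wt and at 29.4, 29.3 and 29.5 CPM in Hox-/- cultures, a log2 fold change of -0.78 ± 0.07 (edgeR adjusted p = 7.07e-07). Esrp2 stood apart from its paralog, at 15.7, 14.6 and 13.2 CPM against 16.8, 15.6 and 15.9 CPM; its log2 fold change of 0.16 ± 0.09 did not pass (edgeR adjusted p = 0.167). Grhl2 stood at 7.30, 6.40 and 7.37 CPM against 4.43, 4.43 and 4.60 CPM (log2 fold change -0.63 ± 0.13, edgeR adjusted p = 0.00148). Spint2 stood at 122, 119 and 114 CPM against 70.8, 67.8 and 68.4 CPM, a log2 fold change of -0.77 ± 0.05 (edgeR adjusted p = 2.14e-08).

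Undifferentiated mES cells carried little keratin RNA in either genotype, and of the 7 genes tested only Krt8 had a fold above 2 between genotypes. Krt8 stood at 9.63 and 9.33 CPM in wt and at 2.24 and 2.60 CPM in Hox-/- mES cells, a log2 fold change of -1.97 ± 0.19 (edgeR adjusted p = 4.39e-10). Of the 7 genes tested, 3 were called, where 23.2% of all genes tested were called either way: Krt8 and Esrp2 lower, Grhl2 higher. Esrp2 (14.3 and 15.2 against 11.4 and 11.8 CPM) had a log2 fold change of -0.34 ± 0.12, and Grhl2 (2.32 and 1.79 against 4.03 and 2.77 CPM) one of 0.72 ± 0.27. Their edgeR adjusted p were 0.0358 and 0.0444, and both calls were lost with DESeq2, without either wt library, and without replicate 1 of the Hox-/- libraries. Krt18, with 20 and 19 counts in wt and 5 and 14 in Hox-/- libraries, did not pass at -0.89 ± 0.43 (edgeR adjusted p = 0.137). Krt19 (-0.21 ± 0.29), Ovol2 (-0.80 ± 0.46) and Spint2 (-0.19 ± 0.07) did not pass either (edgeR adjusted p = 0.651, 0.22 and 0.0578).

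From mES cells to endoderm cultures, each of the 4 keratins rose more than 10-fold in both genotypes, and Esrp1 went from almost no counts to a high level, while Esrp2 was already present in mES cells. In wt cells 8 of 9 genes tested rose, where 41.6% of all genes tested were called higher. In Hox-/- cells it was also 8 of 9, against 42.7%. Krt7 and Esrp1, which failed the filter in mES cells, passed it here through the endoderm libraries alone. Krt18 rose by 7.30 ± 0.12 and Krt8 by 4.84 ± 0.10 on the log2 scale in wt cells (edgeR adjusted p = 1.17e-20 and 2.92e-19). Krt19, at 3.32 and 1.79 CPM in wt mES cells and 2.47 and 2.02 CPM in Hox-/- ones, rose by 5.08 ± 0.17 in wt and 4.63 ± 0.19 in Hox-/- cells (edgeR adjusted p = 4.44e-16 and 7.99e-15). Krt7, with between 2 and 7 counts in each mES library, rose by 3.81 ± 0.31 in wt and 3.43 ± 0.39 in Hox-/- cells (edgeR adjusted p = 5.44e-10 and 8.06e-08).

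Esrp1 had 6 and 0 counts in the wt mES libraries and 1 count in each Hox-/- mES library. Its 1462 counts in Hox-/- endoderm against 2 in Hox-/- mES cells gave a rate ratio of 372 (95% exact interval 103 to 3072, counting error only). Esrp2, already at 11.4 to 15.2 CPM in mES cells, did not pass in wt (-0.14 ± 0.10, edgeR adjusted p = 0.214) and rose by 0.39 ± 0.11 in Hox-/- cells (edgeR adjusted p = 0.0023). Ovol2 rose by 2.07 ± 0.29 in wt and by 1.13 ± 0.40 in Hox-/- cells (edgeR adjusted p = 2.15e-06 and 0.0149); without replicate 2 of the Hox-/- mES libraries or replicate 2 of Hox-/- endoderm, the latter had an adjusted p of 0.0988 or 0.0504. Spint2, at 51.5 and 47.9 CPM in wt and 45.4 and 41.9 CPM in Hox-/- mES cells, rose by 1.14 ± 0.06 and 0.58 ± 0.06 (edgeR adjusted p = 7.69e-13 and 6.55e-08).

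Whether this rise differed by genotype was tested as an interaction, which was called for 4 of 9 genes tested, where 24.1% of all genes were called either way. The rise was larger in Hox-/- cells for Krt8, with a log2 interaction of 1.75 ± 0.22 (edgeR adjusted p = 8.53e-06), and for Esrp2, with 0.53 ± 0.15 (edgeR adjusted p = 0.0124). It was smaller in Hox-/- cells for Grhl2, at -1.33 ± 0.29 (edgeR adjusted p = 0.00197), and for Spint2, at -0.56 ± 0.09 (edgeR adjusted p = 0.000107). Grhl2 itself rose by 1.63 ± 0.20 in wt cells (edgeR adjusted p = 3.03e-07) and did not pass in Hox-/- cells (0.30 ± 0.19, edgeR adjusted p = 0.153). The Esrp2 interaction was lost with DESeq2 (adjusted p = 0.0567), without replicate 2 of the wt mES libraries (0.0582) and without replicate 1 of the Hox-/- ones (0.0605).

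Activin A gastruloids of wt cells carried more RNA of every tested member than Chiron gastruloids of the same age. At 96 h 9 of 9 genes tested rose with Activin A, where 31.3% of all genes tested were called higher, and at 120 h again 9 of 9, against 20.3%. The median log2 fold change over the 9 genes was 3.08 at 96 h and 3.56 at 120 h, against 0.00 and -0.01 over all genes. Krt7 and Ovol2 passed the filter through the Activin A libraries. The 4 wt Activin A libraries are the same ones used in the genotype comparisons above, so these results share samples with those.

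Krt8 stood at 15.5 and 19.5 CPM in Chiron gastruloids at 96 h and at 7.12 and 10.3 CPM at 120 h, and it was higher with Activin A by 3.23 ± 0.09 and 4.55 ± 0.12 on the log2 scale (edgeR adjusted p = 1.28e-19 and 4.29e-19). Krt18, at 4.43 and 5.52 CPM and then 6.03 and 5.30 CPM in Chiron gastruloids, was higher with Activin A by 3.21 ± 0.10 and 4.74 ± 0.11 (edgeR adjusted p = 1.24e-18 and 4.20e-20). The 2 partner keratins rose by near equal folds at each age. Krt7 and Krt19 had between 6 and 21 counts in each Chiron library; Krt7 rose by 4.12 ± 0.26 and 4.55 ± 0.26, and Krt19 by 3.08 ± 0.22 and 3.83 ± 0.29 (edgeR adjusted p between 7.50e-13 and 2.19e-10).

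Esrp1 stood at 16.8 and 19.6 CPM in Chiron gastruloids at 96 h and at 5.03 and 4.98 CPM at 120 h, and it rose with Activin A by 2.37 ± 0.07 and 2.76 ± 0.14 (edgeR adjusted p = 1.92e-18 and 6.57e-14). Esrp2, at 1.70 and 3.12 CPM and then 1.76 and 3.07 CPM in Chiron gastruloids, rose by 0.88 ± 0.21 at 96 h and by 2.53 ± 0.25 at 120 h (edgeR adjusted p = 0.000862 and 1.46e-08). Ovol2 had between 4 and 7 counts in each Chiron library and rose by 3.73 ± 0.32 and 3.56 ± 0.37 (edgeR adjusted p = 5.37e-10 and 3.24e-08). Grhl2 (5.65 and 6.52, then 1.93 and 2.33 CPM in Chiron gastruloids) rose by 1.06 ± 0.12 and 2.50 ± 0.21 (edgeR adjusted p = 5.63e-08 and 8.77e-10). Spint2, the most even of the 10 over the groups, stood at 46.4 and 54.6, then 31.3 and 27.8 CPM in Chiron gastruloids and rose by 1.17 ± 0.07 and 1.54 ± 0.09 (edgeR adjusted p = 2.50e-13 and 9.63e-13).

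The Activin A effect was larger at 120 h than at 96 h for 5 of 9 genes tested, where 21.7% of all genes were called in that direction. Log2 interaction values were 1.32 ± 0.17 for Krt8, 1.53 ± 0.18 for Krt18, 1.64 ± 0.34 for Esrp2, 1.44 ± 0.25 for Grhl2 and 0.37 ± 0.11 for Spint2 (edgeR adjusted p between 2.82e-07 and 0.0116). The Spint2 call was lost when replicate 2 of Chiron 96 h, replicate 2 of Chiron 120 h, replicate 1 of wt Activin A 96 h or replicate 2 of wt Activin A 120 h was left out (adjusted p 0.0573 to 0.0888). Esrp1 (0.39 ± 0.17), Krt7 (0.44 ± 0.55), Krt19 (0.76 ± 0.46) and Ovol2 (-0.17 ± 0.59) did not pass (edgeR adjusted p between 0.0733 and 0.855); without replicate 1 of Chiron 96 h, Esrp1 did, at 0.47 (adjusted p = 0.0252).

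Between 96 h and 120 h Krt8, Krt18 and Krt19 rose in wt Activin A gastruloids and fell in Hox-/- ones, while Esrp1 and Spint2 fell in both and Esrp2 rose in both. In wt, 6 genes rose and 2 fell among the 9 tested, where 37.2% of all genes tested were called higher and 37.8% lower. In Hox-/- gastruloids 1 rose and 6 fell, against 34.9% and 37.6% of all genes. Chiron gastruloids had 4 falls, Krt8, Esrp1, Grhl2 and Spint2, against 33.2% of all genes. Library totals also differed with time, so a fixed depth was tried. With every library thinned to the smallest, 24 of 27 results kept their side of the threshold, 2 calls were lost and 1 was gained.

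Krt18 rose by 1.62 ± 0.05 on the log2 scale in wt Activin A gastruloids and fell by 2.61 (SE 0.12) in Hox-/- ones (edgeR adjusted p = 6.37e-31 and 1.91e-24). Krt7 rose by 1.43 ± 0.14 in wt (edgeR adjusted p = 1.79e-12) and did not pass in Hox-/- gastruloids (-0.09 ± 0.66, edgeR adjusted p = 0.912), where it had at most 7 counts in a library. Krt8 moved little in wt, 0.18 ± 0.05 (edgeR adjusted p = 0.000973), and that call was lost without replicate 1 of the wt 96 h libraries (0.07, adjusted p = 0.23). In Hox-/- gastruloids Krt8 fell by 2.35 (SE 0.08; edgeR adjusted p = 2.18e-31). Krt19 rose by 0.45 ± 0.16 in wt (edgeR adjusted p = 0.00813), a call lost with DESeq2 and without replicate 1 of wt 96 h or replicate 2 of wt 120 h, and fell by 3.00 (SE 0.31) in Hox-/- gastruloids (edgeR adjusted p = 3.01e-12).

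Esrp1 fell by 1.57 (SE 0.07) in wt Activin A, by 4.53 (SE 0.12) in Hox-/- Activin A and by 1.98 (SE 0.14) in Chiron gastruloids on the log2 scale (edgeR adjusted p = 9.82e-27, 1.29e-35 and 1.41e-11). Its paralog Esrp2 rose by 1.46 ± 0.15 in wt and by 1.58 ± 0.34 in Hox-/- Activin A gastruloids (edgeR adjusted p = 6.25e-12 and 5.09e-05) and did not pass with Chiron (-0.20 ± 0.29, edgeR adjusted p = 0.573). Grhl2 did not pass in wt Activin A (-0.18 ± 0.12, edgeR adjusted p = 0.173), fell by 3.22 (SE 0.28) in Hox-/- Activin A and fell by 1.64 (SE 0.21) in Chiron gastruloids (edgeR adjusted p = 1.29e-14 and 3.74e-07). Ovol2 rose by 0.65 ± 0.21 in wt (edgeR adjusted p = 0.00574), a call lost with DESeq2 and without replicate 1 of wt 120 h, and did not pass in Hox-/- gastruloids (-0.49 ± 0.64, edgeR adjusted p = 0.49). Spint2 fell by 0.50 (SE 0.05) in wt, by 2.81 (SE 0.07) in Hox-/- Activin A and by 0.88 (SE 0.09) in Chiron gastruloids (edgeR adjusted p = 4.22e-12, 1.07e-35 and 5.26e-09).

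**Figure D3:**
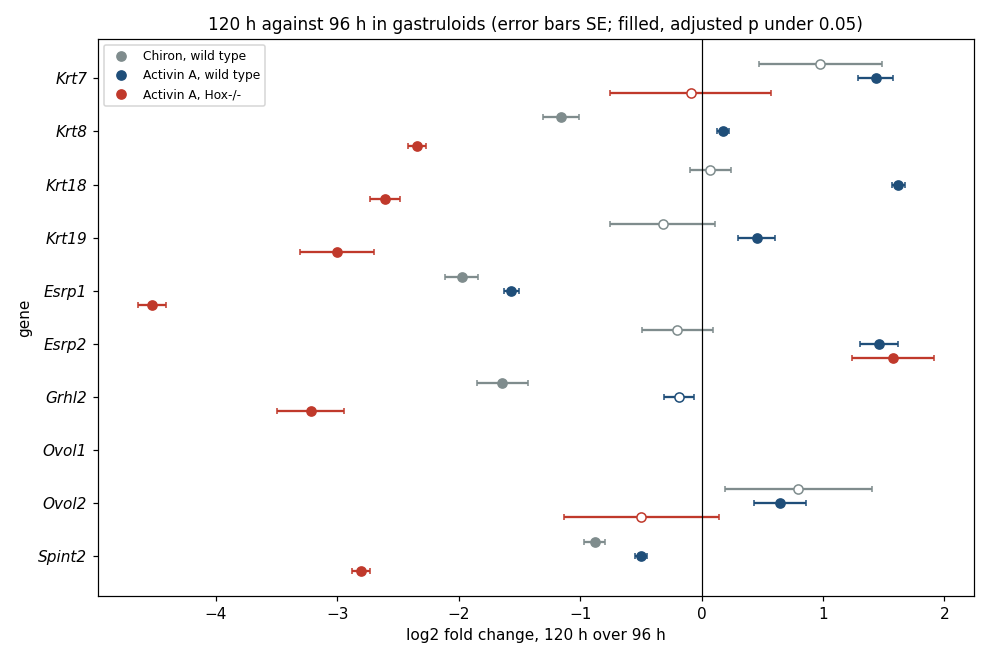
Log2 fold change of 120 h over 96 h (horizontal axis) for each gene (vertical axis) in wt Chiron, wt Activin A and Hox-/- Activin A gastruloids; bars are standard errors, filled points are called and open ones are not, and Ovol1 was not tested. Krt18 and Krt19 lie above 0 in wt Activin A gastruloids and at -2.61 and -3.00 in Hox-/- ones, while Esrp2 lies above 0 in both.

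The level of Krt8 relative to its partner Krt18, per exon length, took 1 value in every gastruloid group at 96 h and different values at 120 h. The ratio was 2.57 and 2.59 in the Chiron libraries at 96 h, 2.58 and 2.63 in wt Activin A and 2.60 and 2.58 in Hox-/- Activin A libraries, although Krt8 itself spanned 15.5 to 187 CPM over these 6 libraries. At 120 h it was 0.959 in both wt Activin A libraries, 0.866 and 1.42 in the Chiron ones, and 2.83 and 3.47 in the Hox-/- Activin A ones. Thus the wt Activin A gastruloids went from an excess of Krt8 to near equal levels, as Krt18 rose, and the Hox-/- ones kept the excess at a lower total. The endoderm cultures were at 0.900 ± 0.086 (SD, n = 3) in wt and 1.22 ± 0.068 (SD, n = 3) in Hox-/- cells, without overlap. In mES cells the ratio was 5.32 and 4.64 in wt and, on 5 and 14 counts of Krt18, 4.40 and 1.63 in Hox-/- libraries. Ratios taken from the deposited FPKM, which are scaled to transcript length and depth, were 2.46, 2.49 and 2.51 as group means at 96 h and 0.922 in wt Activin A at 120 h. With 2 libraries a group, an exact permutation test cannot pass, so these ratios, which were chosen after their values were seen, are given without a test.

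The summed level of the 4 keratins per exon length was 371 ± 12 CPM per kb in wt endoderm and 262 ± 18 in Hox-/- endoderm (SD, n = 3 each). It rose from 127 ± 13 at 96 h to 223 ± 4.4 CPM per kb at 120 h in wt Activin A gastruloids and went from 74.9 ± 2.3 to 14.1 ± 0.095 in Hox-/- ones (SD, n = 2 each). Chiron gastruloids were at 12.8 ± 2.0 and 8.81 ± 0.80 (SD, n = 2 each). Krt8 and Krt18 made up most of the sum in every differentiated group. Krt19 supplied 13.9% ± 0.63 of it in wt and 12.2% ± 0.96 in Hox-/- endoderm (SD, n = 3 each), against between 2.20% and 3.75% as group means in gastruloids. In mES cells, on low totals, its share was 18.7% ± 6.4 in wt and 40.6% ± 10.3 in Hox-/- libraries (SD, n = 2 each).

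The ratio of Esrp1 to Esrp2, also chosen after its values were seen and given without a test, differed between cell states. Per exon length, Esrp1 was at 2.40 ± 0.23 times Esrp2 in wt endoderm and at 1.26 ± 0.047 times in Hox-/- endoderm (SD, n = 3 each), whereas in mES cells it was at most 0.0192 times Esrp2 in any library. In Activin A gastruloids at 96 h the ratio was 14.3 and 13.8 in wt libraries. In Hox-/- ones the ratio was 54.5 and 57.9, on only 18 and 11 counts of Esrp2. At 120 h it was 1.60 and 1.85 in wt and 0.650 and 1.11 in Hox-/- libraries. Per exon length, Esrp1 thus no longer exceeded Esrp2 by 2-fold in any of these 4 libraries. From the deposited FPKM the wt ratio at 120 h ran from 1.91 to 2.26, so that statement depends on the length used. Chiron gastruloids went from 6.79 and 4.32 to 1.97 and 1.12. The FPKM of Esrp2 is listed at 0 in 12 of the 22 libraries, although these hold 11 to 153 counts of it. Between 1.52% and 2.87% of genes with at least 100 counts in a library were listed at 0 there. The FPKM were therefore used for Esrp2 only in the limma alternative and in the wt ratio at 120 h given above. What part reads of Nfatc3 take in the Esrp2 counts was not tested.

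**Figure D4:**
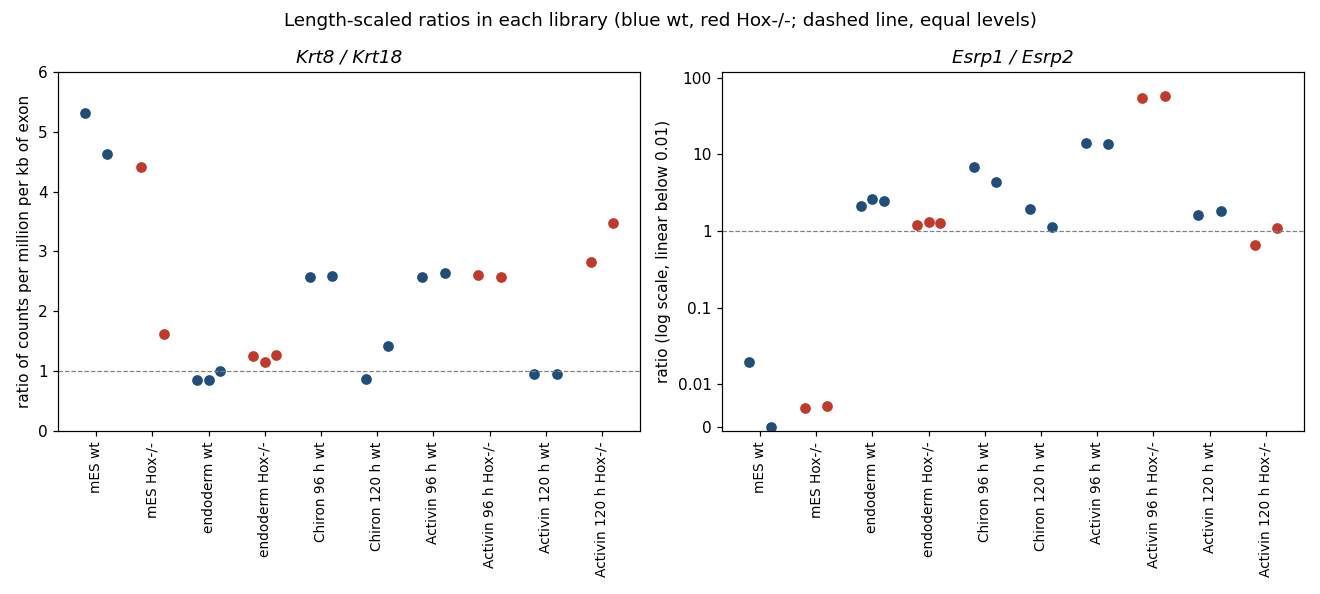
Ratio of Krt8 to Krt18 (left, linear axis) and of Esrp1 to Esrp2 (right, logarithmic above 0.01), both per exon length, in each of the 22 libraries by group; wt is blue, Hox-/- red, and the dashed line marks equal levels. The 6 gastruloid libraries at 96 h lie between 2.57 and 2.63 for Krt8 to Krt18, and those of wt Activin A at 120 h lie at 0.959.

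Over the 10 groups, the spread of group means differed widely between members. Spint2 ranged 7.63-fold, from 15.7 CPM in Hox-/- Activin A gastruloids at 120 h to 120 CPM in wt ones at 96 h, and it never had fewer than 165 counts. Krt18 ranged 311-fold and Krt8 122-fold, both from Hox-/- mES cells to wt endoderm. In the order of group means, 1 of 9 neighbouring pairs overlapped for Krt8 (wt mES cells and Chiron gastruloids at 120 h), 2 of 9 for Krt18 and for Spint2, and 3 of 9 for Krt19. For Krt7, 5 of 9 overlapped, all but 1 of them among the groups under 1 CPM, and for Ovol2 6 of 9. Wild-type Activin A gastruloids at 120 h were highest in Krt7 and Ovol2, those at 96 h in Esrp1, Grhl2 and Spint2, wt endoderm in Krt8, Krt18 and Krt19, and Hox-/- endoderm in Esrp2. For Grhl2 the 96 h and 120 h wt Activin A libraries overlapped, for Ovol2 the 120 h ones overlapped with wt endoderm, and for Spint2 the 96 h ones did. For Esrp2 the 2 endoderm genotypes overlapped.

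Other epithelial genes, from lists drawn up for this account with earlier results of these data known, moved alongside in the strongest comparisons. Their counts are therefore a description and no independent check. In Hox-/- Activin A gastruloids at 120 h, 13 of 14 adhesion and polarity genes tested fell and none rose, among them Cdh1 (E-cadherin, -3.90), Cldn6 (a claudin, -4.38) and Epcam (an epithelial adhesion molecule, -3.30 on the log2 scale). Their median was -3.58 against -0.02 over all genes, of which 25.5% were called lower there. In Hox-/- endoderm 14 of 14 fell, against 23.1% of all genes, with Cldn6 at -1.26, Cldn7 at -1.20 and Cdh1 at -0.63. With Activin A against Chiron 14 of 14 rose at either age, against 31.3% of all genes at 96 h and 20.3% at 120 h. At 96 h the Hox-/- list was split, with 7 lower and 3 higher of 14 tested, where 16.7% of all genes were called lower. In mES cells 1 of 13 was lower, Ap1m2 (an epithelial clathrin adaptor subunit, -0.68), where 23.2% of all genes were called either way.

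The membrane serine proteases and Spint1, the relative of Spint2, fell in 5 of 5 tested cases in Hox-/- Activin A gastruloids at 120 h, with Tmprss2 at -3.84, Prss8 (prostasin) at -4.10 and Spint1 at -2.42 on the log2 scale. Both the inhibitors and the proteases were thus lower there, where 25.5% of all genes tested were called lower. In Hox-/- endoderm 4 of 5 fell, against 23.1% of all genes, with Tmprss2 at -1.67, Hpn (hepsin) at -1.39 and Spint1 at -0.77. At 96 h the Hox-/- list was split, with Hpn (-1.05) and St14 (matriptase, -0.18) lower and Tmprss2 (0.61) higher among 5 tested. Of all genes, 16.7% were called lower there. In Hox-/- mES cells 2 of 5 were lower, where 23.2% of all genes were called either way. With Activin A against Chiron, 5 of 6 rose at each age, against 31.3% of all genes at 96 h and 20.3% at 120 h.

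Desmosome and plakin genes, whose proteins anchor keratin filaments, fell in 8 of 9 tested cases in Hox-/- Activin A gastruloids at 120 h and rose in 1. Of all genes tested there, 25.5% were called lower and 24.9% higher. Dsg2 was at -2.14, Dsp at -0.99 and Plec at -0.88 on the log2 scale, with a list median of -1.21. At 96 h 6 of 9 fell, against 16.7% of all genes, and 1 rose, with Dsg2 at -1.27 and Dsp at -0.76. In endoderm 5 of 9 fell, against 23.1% of all genes, and 1 rose, with Dsp at -0.54 and Dsg2 at -0.36. Most other keratins were too low to test: 4 of 13 passed the filter in the Activin A libraries. Krt15 (-3.96), Krt80 (-2.14) and Krt20 (-2.06) were lower in Hox-/- gastruloids at 120 h. They had at most 2, 4 and 3 counts in a Hox-/- library and at most 15, 16 and 10 in a wt one, so these folds rest on few counts. The Krt20 call was lost with DESeq2 (adjusted p = 0.117), without replicate 1 of the wt (0.0631) or without replicate 1 of the Hox-/- 120 h libraries (0.119). In endoderm Krt5 was higher in Hox-/- cultures, at 0.786 against 0.0930 CPM as means and at most 16 against 3 counts in a library. Its log2 fold change was 2.92 (edgeR adjusted p = 0.00105), the 1 call among 3 of these keratins tested there.

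Calls among other transcription factors of epithelia went in both directions in several comparisons, and in some they were no more frequent than over all genes. In Hox-/- Activin A gastruloids at 120 h, 2 of 8 tested fell (Elf3 at -1.54, Klf5 at -0.63 on the log2 scale) and 1 rose (Klf4 at 1.11). Of all genes tested there, 25.5% were called lower and 24.9% higher. In Hox-/- endoderm 6 of 7 fell, against 23.1% of all genes, with Klf4 at -1.70, Elf3 at -1.14 and Tfap2c at -0.97. In Hox-/- gastruloids at 96 h, 4 of 8 fell, against 16.7% of all genes, and 1 rose, with Ehf at -4.15, Klf4 at -0.94 and Klf5 at -0.40. With Activin A against Chiron at 96 h, 4 of 8 rose, against 31.3% of all genes, and 1 fell, with Ehf at 5.13, Elf3 at 2.35 and Klf5 at 1.69. At 120 h 1 of 8 rose, against 20.3% of all genes, and 2 fell. Ehf rose by 3.94, while Grhl3, a paralog of Grhl2, and Tfap2c were at -1.88 and -1.08. Of the 9 mesenchymal counterparts, all tested, 7 rose and 2 fell in Hox-/- Activin A gastruloids at 120 h, where 24.9% of all genes tested were called higher, with the matrix protein gene Fn1 at 1.34, the repressor Snai1 at 1.69 and Cdh2 (N-cadherin) at 0.81. In Hox-/- endoderm their median log2 fold change was 0.31, against 0.00 over all genes, with Zeb1 at 1.03, Fn1 at 0.55 and Cdh2 at 0.32. There 2 of the 9 fell, against 23.1% of all genes. In Activin A against Chiron gastruloids at 96 h their median was -0.94, against 0.00 over all genes, with Fn1 at -1.23 and Snai1 at -1.20. The mesenchymal filament gene Vim, at 1.54, was the 1 that rose, against 31.3% of all genes. At 120 h 3 rose, against 20.3% of all genes, and 1 fell, with Prrx1 at 1.92, Fn1 at 0.99 and Cdh2 at -0.69.

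Markers of the cell types these mixed cultures could hold differed between the same groups. The 8 definitive endoderm markers summed to 444 to 456 CPM in wt and to 169 to 175 CPM in Hox-/- Activin A gastruloids at 120 h, with all 8 above 1 CPM in both. Of these markers 6 of 8 were lower, against 25.5% of all genes tested. Sox17 stood at 57.4 against 3.78 CPM, while Cxcr4 stood at 119 against 115 CPM as means. At 96 h the sums were 423 to 476 CPM in wt and 30.9 to 34.4 CPM in Hox-/- libraries, with 8 of 8 lower, against 16.7% of all genes. In endoderm they were 209 to 219 against 83.2 to 89.4 CPM, with 8 of 8 lower, against 23.1% of all genes. In Chiron gastruloids these markers summed to 128 to 166 CPM at 96 h and to 65.2 to 68.8 CPM at 120 h.

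Other lists moved too in the Activin A gastruloids at 120 h, where 25.5% of all genes tested were called lower in Hox-/- libraries and 24.9% higher. Visceral endoderm markers summed to 11.7 to 15.1 CPM in wt and 1.29 to 1.87 CPM in Hox-/- libraries, where Afp and Ttr were at 0. The 6 trophoblast markers summed to 17.7 to 21.5 against 9.31 to 9.45 CPM, with 2 of 5 tested lower and 1 higher. Surface ectoderm markers summed to 1.98 to 2.92 against 0.776 to 0.935 CPM, with Krt14 at 0 in both genotypes. Presomitic and somitic mesoderm markers were higher in Hox-/- libraries, 622 to 631 against 359 to 367 CPM. Neural markers summed to 48.2 to 50.6 CPM in wt and 5.60 to 7.29 CPM in Hox-/- libraries, with 4 of 4 lower. Endothelial markers summed to 27.5 to 34.4 against 49.0 to 51.0 CPM, with 2 of 4 higher, and caudal progenitor markers to 464 to 471 against 569 to 572 CPM, with 4 of 5 higher and 1 lower. Pluripotency markers summed to 82.3 to 86.2 CPM in wt and 25.4 to 27.2 CPM in Hox-/- libraries; in endoderm they summed to 532 to 614 and 175 to 198 CPM, and in mES cells they exceeded 4057 CPM. The part of any of these cell types in the differences of the 10 genes was not tested.

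As a description over the 10 group means of log2(CPM + 1), with 13272 genes of at least 5 CPM in their highest group compared, the gene most like Spint2 was Ocln (occludin, a tight junction protein; Pearson r = 0.991), followed by Bspry (0.968) and Epcam (0.968). The gene most like Krt18 was Cthrc1 (0.988), and the ones most like Krt8 were Cobll1 (0.970) and Krt18 itself (0.967). Krt7 was most like Foxa1 (0.953), an endoderm transcription factor, then Lamb3 (0.950) and Ovol2 (0.949). Ovol2 was in turn most like Krt7, then Lamb3 (0.945). Esrp1 was most like Stk26 (0.985), Krt19 most like Klk8 (0.967), Esrp2 most like Adgrg1 (0.944) and Grhl2 most like Yif1a (0.925). The 10 points of each of these share libraries and their scaling.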

How the data were processed

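The 10 genes and the gene lists were chosen with earlier results of these data known. Raw counts per gene were deposited by the authors in 4 tables, and the authors' FPKM in 4 more; the 4 wt Activin A libraries are in both gastruloid tables. Trimming with cutadapt 1.16, STAR, Cufflinks 2.2.1 and build mm10 are named in the submitters' processing notes. PolyA libraries were made with a stranded kit, per the labels. Which program counted the reads is not given in the sources used here.

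Counts were tested with edgeR 4.0.16 (R 4.3.3): filterByExpr, TMM scaling, quasi-likelihood test and Benjamini-Hochberg adjustment over all genes tested, without a replicate block. The mES, endoderm, Activin A and wt gastruloid tables were each fitted with 1 coefficient per group, and mES and endoderm counts were joined for the differentiation effect. The scripts were tested on simulated data. Exon lengths are GENCODE M21 unions. Alternatives were RLE scaling, library totals, other filters, DESeq2 1.42.0, limma 3.58.1 on log2(FPKM + 1), a replicate block, smaller fits and each library left out. Named genes are the 10 members, up to 3 called genes of smallest p per list in the genotype and treatment comparisons, and the 3 most similar genes. Common biological coefficients of variation ran from 0.0263 to 0.0537, and every replicate pair differed beyond sampling noise.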

Additional observations from a re-analysis of the deposited data

Results flagged for a closer look

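For 15 results the effect of a contrast differed between 2 groups by an edgeR interaction test; values are log2. The genotype effect in Activin A gastruloids was more negative at 120 h than at 96 h for Krt8 (-2.52), Krt18 (-4.23), Krt19 (-3.45), Esrp1 (-2.96), Grhl2 (-3.03) and Spint2 (-2.31). The Activin A effect in wt gastruloids was larger at 120 h than at 96 h for Krt8 (1.32), Krt18 (1.53), Esrp2 (1.64), Grhl2 (1.44) and Spint2 (0.37). The change from mES cells to endoderm was larger in Hox-/- than in wt cells for Krt8 (1.75) and Esrp2 (0.53), and smaller for Grhl2 (-1.33) and Spint2 (-0.56).

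The tests with these libraries could not flag a single library that stands apart within its group, because no group holds more than 3.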

How the results depend on the processing

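Of the 14 comparisons, counts of called members changed by more than 1.5 times in 5. In mES cells the 3 calls became 1 with DESeq2 (where Krt18 and Ovol2 have no adjusted p) and 1 with limma on log2(FPKM + 1), and ran from 1 to 4 with each library left out. With at least 10 counts in every library, 5 genes were tested, so the count was 5 for the genotype effect in Activin A gastruloids at 120 h, 5 for the time effect in wt ones, and 4 for the differentiation effect in wt and in Hox-/- cells. With limma on log2(FPKM + 1), the Esrp2 genotype-by-time value was -2.29 (adjusted p = 7.35e-06), where its FPKM is listed at 0 in libraries with counts, and the Ovol2 treatment-by-time value was 0.34 (adjusted p = 0.0231); the cause of the second was not tested. Library totals alone moved the median of all genes by -0.111 (log2) in the genotype effect at 120 h, by 0.105 in the Chiron time effect and by 0.117 in the wt differentiation effect, and reversed no member.

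Replicate numbers are shared between groups, but deviations of same-numbered endoderm libraries correlated at -0.0701, 0.106 and -0.0132, so they were not treated as pairs. With the replicate block, 123 of 124 member results kept their side of the threshold, Spint2 in mES cells passed (-0.19, adjusted p = 0.0289), and the mES count was 4. Counts under about 10 in a library limit Krt7, Ovol2 and Ovol1 in several groups. They also limit Krt19 in Chiron and Hox-/- Activin A gastruloids at 120 h and Grhl2 in the latter. In mES cells they limit Esrp1 and, in Hox-/- libraries, Krt18. Having 2 libraries a group limits every gastruloid value.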
